A study of Mus musculus with 3 samples.

Results

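The genes described here encode the growth and differentiation factor 5 (GDF5) family and the bone morphogenetic protein (BMP) ligands: Gdf5, Gdf6, Gdf7, Gdf10, Bmp2, Bmp3, Bmp4, Bmp5, Bmp6 and Bmp7. They were taken by symbol, and all 10 were found among the 23284 genes listed in each of 3 RNA-seq libraries of cells sorted from the forming digits of mouse embryos. The Sox9+ library was made from GFP-positive cells of Sox9-eGFP/+ digits at E13.5 (E for embryonic day). The Lgr5+ library was made from GFP-positive forelimb digit cells of Lgr5-eGFPCreERT2/+ embryos at E14.5, which the labels call interzone, and the Lgr5- library from GFP-negative forelimb digit cells of that line and day, called non-interzone. The labels give C57/bl6 as the strain of all 3, name no treatment, give each reporter allele in 1 copy, and do not say how many embryos were pooled or which limb gave the Sox9+ cells. There was 1 library per population, so no value below has an error, no p-value could be computed, and each difference is between libraries. Levels are in FPKM (fragments scaled to transcript length and to the mapped fragments of the library), which can be compared between genes of a library.

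BMPs and GDFs are secreted as dimers after proteases cut a long prodomain from the precursor. They bind a pair of receptor types on the cell surface, whose kinases phosphorylate Smad1, Smad5 and Smad9, and these enter the nucleus with Smad4. Secreted antagonists such as noggin and chordin bind the ligands before they reach a receptor. In the limb BMP signalling is needed for cartilage condensation and for the death of the cells between the digits, and Gdf5 is the classic marker of the interzone, the band of cells at which a joint will form. By sequence the ligands fall into pairs and triplets: Gdf5, Gdf6 and Gdf7; Bmp2 and Bmp4; Bmp5, Bmp6 and Bmp7; and Bmp3 with Gdf10, which is also called Bmp3b.

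RefSeq promoter sequences (build GRCm38.p6) were at hand for 5 of the 10 genes: Gdf7, Bmp4, Bmp5, Bmp6 and Gdf10. Bmp5 and Gdf10 are shown because both were lower in Lgr5+ cells than in Sox9+ cells although their upstream bases differ in make-up. Capitals mark CpG dinucleotides, each sequence ends just before the annotated start of the gene, and both genes lie on the plus strand (Bmp5 window chr9:75775115-75775363, Gdf10 window chr14:33923337-33923586).
Gdf10 promoter: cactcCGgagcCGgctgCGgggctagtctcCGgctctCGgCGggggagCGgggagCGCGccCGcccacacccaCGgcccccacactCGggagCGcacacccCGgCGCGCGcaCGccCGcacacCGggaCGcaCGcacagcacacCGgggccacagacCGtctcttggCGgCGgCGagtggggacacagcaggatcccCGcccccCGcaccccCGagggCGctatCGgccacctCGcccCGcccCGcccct
Bmp5 promoter: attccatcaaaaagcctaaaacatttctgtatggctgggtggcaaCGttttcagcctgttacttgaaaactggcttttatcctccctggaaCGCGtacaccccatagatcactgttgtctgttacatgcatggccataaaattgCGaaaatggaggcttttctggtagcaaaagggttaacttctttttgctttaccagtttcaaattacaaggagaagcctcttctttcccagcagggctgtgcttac
The Gdf10 window was 78.8% G or C with 35 CpG dinucleotides, and 2.97% of the 32851 promoter windows in the table held as many or more. The Bmp5 window was 43.0% G or C with 4 CpG dinucleotides, a number reached by 62.2% of windows. The median window had 52.4% G or C and 6 CpG dinucleotides. The windows of Gdf7 (20 CpG) and Bmp4 (11 CpG) lay between the 2 shown, and that of Bmp6 begins inside an annotated exon and is not shown. No measurement of these libraries reads promoter activity directly, so the windows are a description.

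Before the ligands, the libraries themselves were read. The FPKM values summed to 593871 in Sox9+ cells, 534025 in Lgr5+ cells and 547115 in Lgr5- cells, and 11924 to 12002 genes reached 1 FPKM. Lgr5 stood at 26.8 FPKM in Lgr5+ cells, 1.36 FPKM in Lgr5- cells and 3.48 FPKM in Sox9+ cells. Sox9 RNA stood at 254.7 FPKM in Sox9+ cells, which were sorted by its reporter, at 332.0 FPKM in Lgr5+ cells and at 147.1 FPKM in Lgr5- cells, so it was not highest in the cells sorted for it. Of the other interzone markers, 9 of 11 measured were at least 2-fold higher in Lgr5+ than in Lgr5- cells and 0 lower. Over all measured genes 3.64% were higher and 1.89% lower. The markers were chosen with earlier results of these data known, so their count describes the library and is no test of its identity. Haemoglobin genes took 1.01% of the summed FPKM of Lgr5- cells and at most 0.0361% elsewhere, and the ribosomal RNA precursor Rn45s took 6.43%, 1.86% and 6.13% of the Sox9+, Lgr5+ and Lgr5- sums. In bulk libraries fewer cells of a type and less RNA per cell cannot be told apart, and this holds for every ligand below.

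The ligand pool was dominated by Gdf5 in Lgr5+ cells and was mixed in the other two. The 10 ligand genes summed to 705.5 FPKM in Lgr5+ cells, 261.7 FPKM in Lgr5- cells and 300.4 FPKM in Sox9+ cells. Gdf5 made up 87.1% of that sum in Lgr5+ cells, against 27.4% in Lgr5- cells and 19.9% in Sox9+ cells. These shares are taken within a library and do not move with the scaling between libraries. The 9 other genes together went the other way, at 90.7 FPKM in Lgr5+ cells, 190.0 FPKM in Lgr5- cells and 240.5 FPKM in Sox9+ cells. Gdf10 was the most abundant ligand gene of Sox9+ cells, with 35.8% of the pool, and of Lgr5- cells, with 33.0%. With Gdf5 set aside, Gdf10, Bmp7 and Bmp2 were the 3 most abundant genes of Sox9+ and Lgr5+ cells, and in Lgr5- cells Bmp4 and Bmp2 stood level behind Gdf10 and Bmp7, at 18.4 and 18.2 FPKM.

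**Figure D1:**
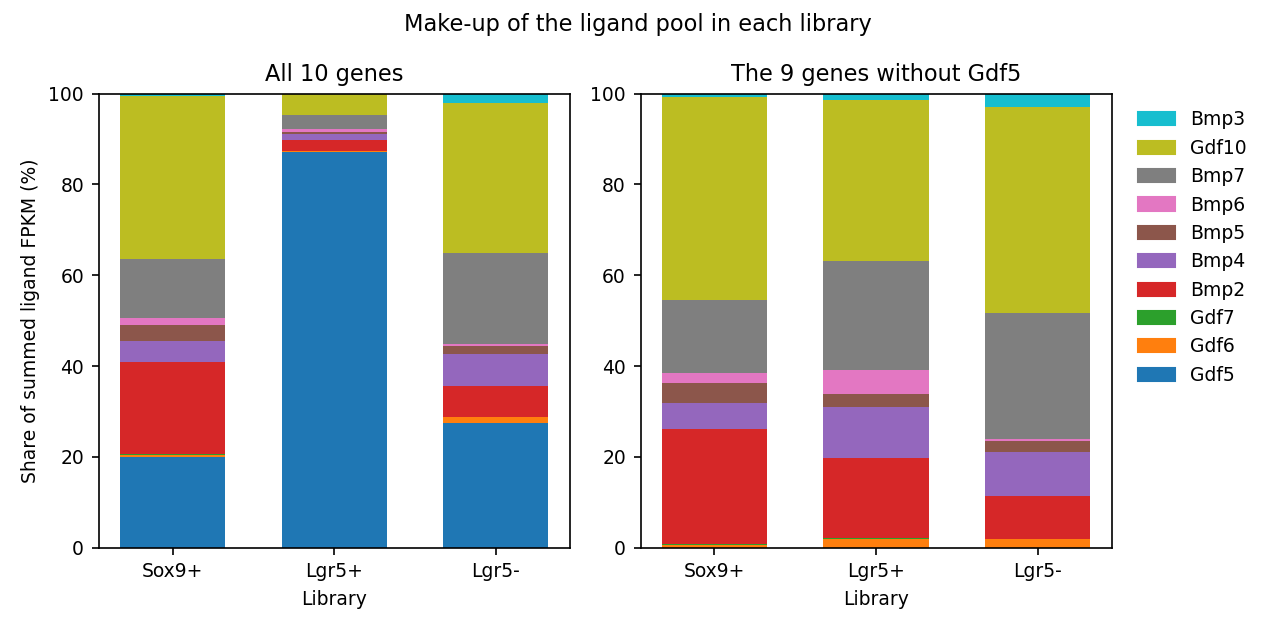
Share of each ligand gene in the summed FPKM of all 10 genes (left) and of the 9 genes without Gdf5 (right), in percent, for each of the 3 libraries. Gdf5 fills 87.1% of the left bar of Lgr5+ cells and 19.9% to 27.4% of the other bars, and on the right Bmp2 takes 25.2% in Sox9+ cells, 17.7% in Lgr5+ cells and 9.57% in Lgr5- cells.

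Among the GDF5-type ligands, Gdf5 itself (chromosome 2, 155941023 to 155945367, minus strand; this and all spans below are whole protein-coding genes in GENCODE M21, GRCm38) stood at 59.9 FPKM in Sox9+ cells, 614.8 FPKM in Lgr5+ cells and 71.7 FPKM in Lgr5- cells. By FPKM it ranked 126 among all listed genes in Lgr5+ cells, 1441 in Sox9+ cells and 1094 in Lgr5- cells. The Lgr5- cells, sorted as non-interzone, were thus not free of Gdf5 RNA, and stood 1.19-fold above the earlier Sox9+ cells, where a fold here and below is a ratio of FPKM + 1. GENCODE places exons of Gm15557 on the opposite strand over 936 of the 2320 exonic bases of Gdf5, and since the library kit does not mark strand, reads of the pair cannot be told apart there. Gdf6 (chromosome 4, 9844372 to 9862345, plus strand), which also acts in joint formation, was low, at 1.43, 1.70 and 3.52 FPKM in Sox9+, Lgr5+ and Lgr5- cells, with its highest level in Lgr5- cells. Gdf7 (chromosome 12, 8297918 to 8301954, minus strand), best known from the dorsal spinal cord and from tendon, did not reach 1 FPKM in any library. It read 0.66 and 0.25 FPKM in Sox9+ and Lgr5+ cells and was listed at 0 in Lgr5- cells, and no fold is given for it.

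The Bmp2 and Bmp4 pair, the ligands most directly tied to cartilage and bone formation, was lower in both later libraries through Bmp2. Bmp2 (chromosome 2, 133552159 to 133562885, plus strand) had a level of 60.7 FPKM in Sox9+ cells, 16.1 FPKM in Lgr5+ cells and 18.2 FPKM in Lgr5- cells. The values of the 2 libraries of E14.5 lay within 1.12-fold of each other, and Sox9+ cells stood apart from both. Bmp4 (chromosome 14, 46383520 to 46390669, minus strand) varied less, with 14.1, 10.1 and 18.4 FPKM in Sox9+, Lgr5+ and Lgr5- cells. The ratio of Bmp4 to Bmp2 within a library was therefore 0.233 in Sox9+ cells, 0.627 in Lgr5+ cells and 1.01 in Lgr5- cells.

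Bmp5, Bmp6 and Bmp7, which share a receptor preference for Acvr1, each had their own pattern. Bmp7 (chromosome 2, 172868012 to 172940321, minus strand), the most abundant of the 3, stood at 38.8 FPKM in Sox9+ cells, 21.8 FPKM in Lgr5+ cells and 52.5 FPKM in Lgr5- cells. Bmp5 (chromosome 9, 75775364 to 75900310, plus strand), whose loss gives the short ear mouse, read 10.3, 2.69 and 4.50 FPKM in Sox9+, Lgr5+ and Lgr5- cells. It was thus highest in Sox9+ cells, while Bmp7 was highest in Lgr5- cells. GENCODE lists Gm26903 on the other strand over 1878 of the 4025 exonic bases of Bmp5, so its values carry the doubt given for Gdf5. Bmp6 (chromosome 13, 38345107 to 38500302, plus strand), a ligand of maturing chondrocytes and of endothelium, stood at 5.23 FPKM in Sox9+ cells and 4.78 FPKM in Lgr5+ cells, but at 0.93 FPKM in Lgr5- cells. At its 3′ end Bmp6 shares 224 of its 3900 exonic bases with Txndc5, a protein disulfide isomerase gene on the opposite strand that stood at 210.9, 199.8 and 133.1 FPKM in Sox9+, Lgr5+ and Lgr5- cells. How reads of these shared bases were assigned is not given in the sources used here, so the low values of Bmp6 are uncertain. The FPKM ratio of Lgr5+ to Lgr5- cells was 5.14 for Bmp6 and 1.50 for Txndc5.

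Gdf10 and Bmp3, relatives that differ from the other ligands in their receptor use and of which Bmp3 is known to oppose BMP signalling, were both lowest in Lgr5+ cells. Gdf10 (chromosome 14, 33923587 to 33937983, plus strand) had a level of 107.6 FPKM in Sox9+ cells, 32.0 FPKM in Lgr5+ cells and 86.3 FPKM in Lgr5- cells. Bmp3 (chromosome 5, 98854415 to 98884396, plus strand) read 1.76, 1.32 and 5.68 FPKM in that order. Gdf10 was thus high in Sox9+ and Lgr5- cells alike, whereas Bmp3 was raised in Lgr5- cells and low in the other two. Within Lgr5+ cells Gdf5 exceeded Gdf10 by a ratio of 19.2, while in Sox9+ and Lgr5- cells the ratio was 0.557 and 0.831.

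**Figure D2:**
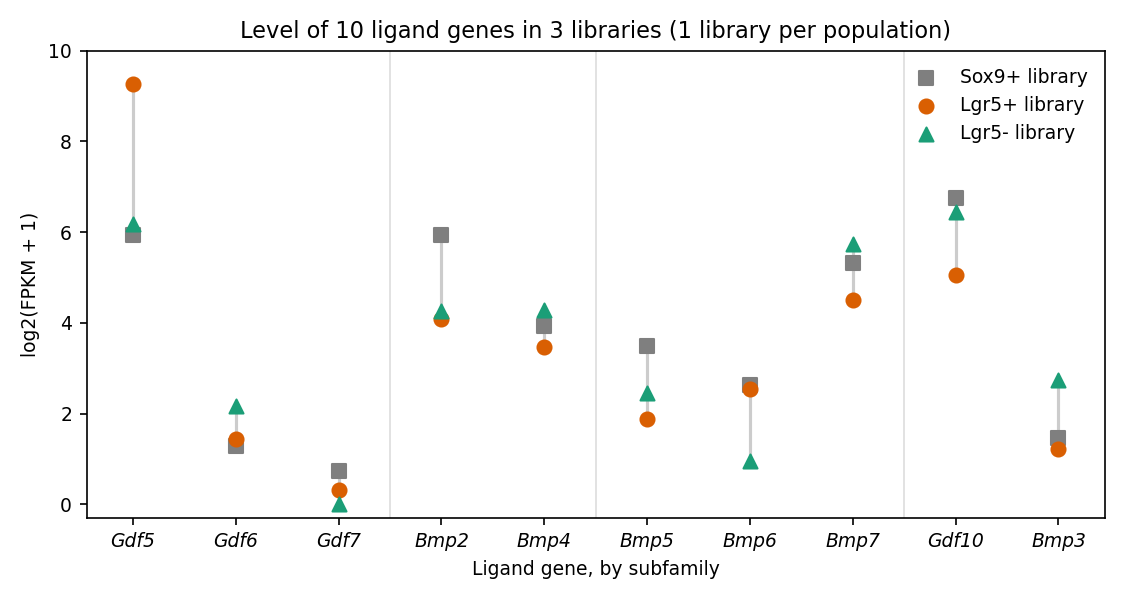
Level of each ligand gene as log2(FPKM + 1) in the Sox9+ (squares), Lgr5+ (circles) and Lgr5- (triangles) libraries, 1 library each, with the genes ordered by subfamily and a grey line spanning the 3 values. Gdf5 is the gene with the widest span and has its high value in Lgr5+ cells, while the circles of Bmp2, Bmp4, Bmp5, Bmp7, Gdf10 and Bmp3 are the lowest of their columns.

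Of the 9 ligand genes that reached 1 FPKM in some library, 6 were lowest in Lgr5+ cells: Bmp2, Bmp3, Bmp4, Bmp5, Bmp7 and Gdf10. Of 12754 genes that reached 1 FPKM in some library, 24.3% were lowest there. Gdf5 was the 1 gene of the 9 that was highest in Lgr5+ cells, against 39.1% of all such genes. Bmp2, Bmp5, Bmp6 and Gdf10 were highest in Sox9+ cells, and Gdf6, Bmp3, Bmp4 and Bmp7 in Lgr5- cells. With 1 library each, how far neighbours in these orders differ beyond their spread is unknown, and several orders rest on small gaps. Between Sox9+ and Lgr5+ cells these were Bmp6, Gdf6 and Bmp3 (1.08-fold, 1.11-fold and 1.19-fold). Between Lgr5+ and Lgr5- cells it was Bmp2 (1.12-fold). Between Sox9+ and Lgr5- cells they were Gdf5, Gdf10 and Bmp4 (1.19-fold, 1.24-fold and 1.28-fold).

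Lgr5+ cells were next compared with the GFP-negative cells of the same day and line. Gdf5 and Bmp6 were higher in Lgr5+ cells, and Bmp7, Gdf10 and Bmp3 were lower. Gdf5 was 8.47-fold higher, with a log2 ratio of 3.08 that 23 of the 12438 genes measured (at least 1 FPKM in the higher library) exceeded. Bmp6 was 2.99-fold higher, with a log2 ratio of 1.58. Bmp3 was 2.88-fold, Gdf10 2.64-fold and Bmp7 2.35-fold lower, with log2 ratios of -1.53, -1.40 and -1.23. Gdf6, Bmp4 and Bmp5 were lower by 1.67-fold, 1.75-fold and 1.49-fold and Bmp2 by 1.12-fold, all within 2-fold. Thus 5 of the 9 measured ligand genes differed by at least 2-fold, where 5.53% of all measured genes did, and the median log2 ratio was -0.74 over the ligand genes and 0.08 over all measured genes. At this fold 3.64% of measured genes were higher and 1.89% lower. The calls of Bmp6 and Bmp3 rest on low levels and end with a pseudocount of 5 FPKM, at log2 ratios of 0.72 and -0.76, whereas Gdf6 passes 2-fold with a pseudocount of 0.1 FPKM, at -1.01.

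Against the earlier Sox9+ cells, Lgr5+ cells were higher in Gdf5 alone among the measured ligand genes past 2-fold, and lower in Bmp2, Gdf10 and Bmp5. Gdf5 was 10.1-fold higher, a log2 ratio of 3.34 that 9 of 12492 measured genes exceeded. Bmp2 was 3.62-fold lower, Gdf10 3.29-fold and Bmp5 3.05-fold, with log2 ratios of -1.86, -1.72 and -1.61. The call of Bmp5 ends with a pseudocount of 5 FPKM, at a log2 ratio of -0.99. Bmp7 was 1.74-fold lower and Bmp4 1.37-fold lower, and Gdf6, Bmp3 and Bmp6 lay within 1.19-fold. The ligand genes past 2-fold were 4 of 9 measured, against 8.29% of all measured genes (4.33% higher, 3.96% lower). Of all genes past 2-fold in this pair 52.2% were higher in Lgr5+ cells, and 64.8% were with the values rescaled to TPM. The 2 populations differ in age, in reporter line and possibly in limb, and these cannot be told apart here. Of 5 measured hindlimb genes 4, Pitx1, Isl1, Hoxc9 and Hoxc10, were at least 2-fold higher in Sox9+ cells, and Tbx4 lay within 2-fold. The 2 most abundant, Pitx1 and Tbx4, stood at 161.0 and 36.8 FPKM in Sox9+ cells and at 56.5 and 22.0 FPKM in Lgr5+ cells. Hoxc10 stood at 17.0 FPKM in Sox9+ cells and 0.37 FPKM in Lgr5+ cells. The part of limb identity in the ligand differences was not tested.

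The third pair, Lgr5- against Sox9+ cells, showed Bmp2, Bmp6 and Bmp5 lower and Bmp3 higher in Lgr5- cells. Bmp6 was 3.23-fold, Bmp2 3.22-fold and Bmp5 2.05-fold lower, with log2 ratios of -1.69, -1.69 and -1.03, and Bmp3 was 2.42-fold higher, with a log2 ratio of 1.28. Gdf5 differed by 1.19-fold, Gdf10 by 1.24-fold, Bmp4 by 1.28-fold and Bmp7 by 1.35-fold, and Gdf6 was 1.86-fold higher. The 4 of 9 measured ligand genes past 2-fold stand beside 8.02% of 12482 measured genes (3.08% higher, 4.94% lower). The share of genes past 2-fold that were higher in Lgr5- cells was 38.4%, and was 52.3% in TPM and 50.3% when scaled to the sum without Rn45s and haemoglobin genes. Bmp5 lay so near the threshold that its call ended under 3 of the 4 other scalings, at log2 ratios of -0.93 to -0.99. With a pseudocount of 5 FPKM the calls of Bmp5, Bmp6 and Bmp3 end, at -0.68, -0.79 and 0.66, so that of Bmp2 alone is left. Gdf6 passes 2-fold with a pseudocount of 0.1 FPKM, at 1.24, and in TPM, at 1.13, where Gdf7 also passes as lower, at -1.08. TPM values are larger than FPKM in every library while the pseudocount and minimum stayed at 1, so both weighed less there. The 3 pairs share libraries, so Bmp2, for example, was lower in both pairs that hold Sox9+ cells through the 1 value of that library.

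**Figure D3:**
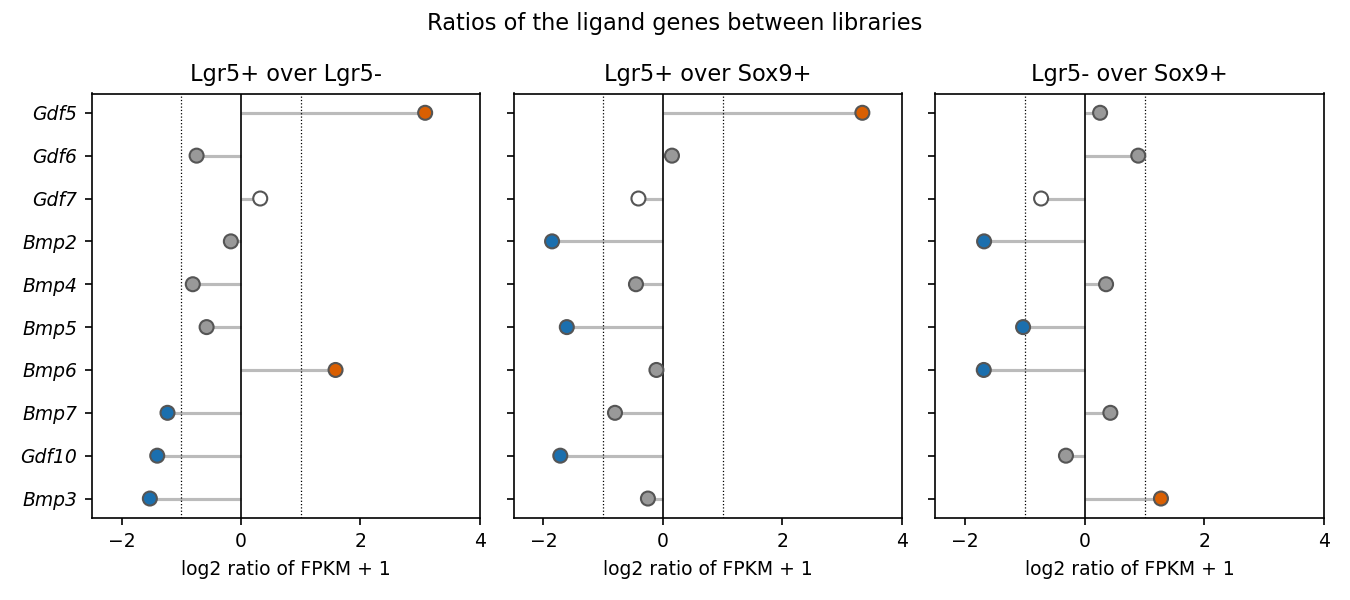
Log2 ratio of FPKM + 1 of each ligand gene in the 3 pairs of libraries, with dotted lines at 2-fold, orange points for genes at least 2-fold higher, blue for at least 2-fold lower, grey for genes within 2-fold and open points for Gdf7, which was under 1 FPKM. Gdf5 reaches 3.08 and 3.34 in the pairs with Lgr5+ cells and 0.26 in the pair without it.

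**Figure D4:**
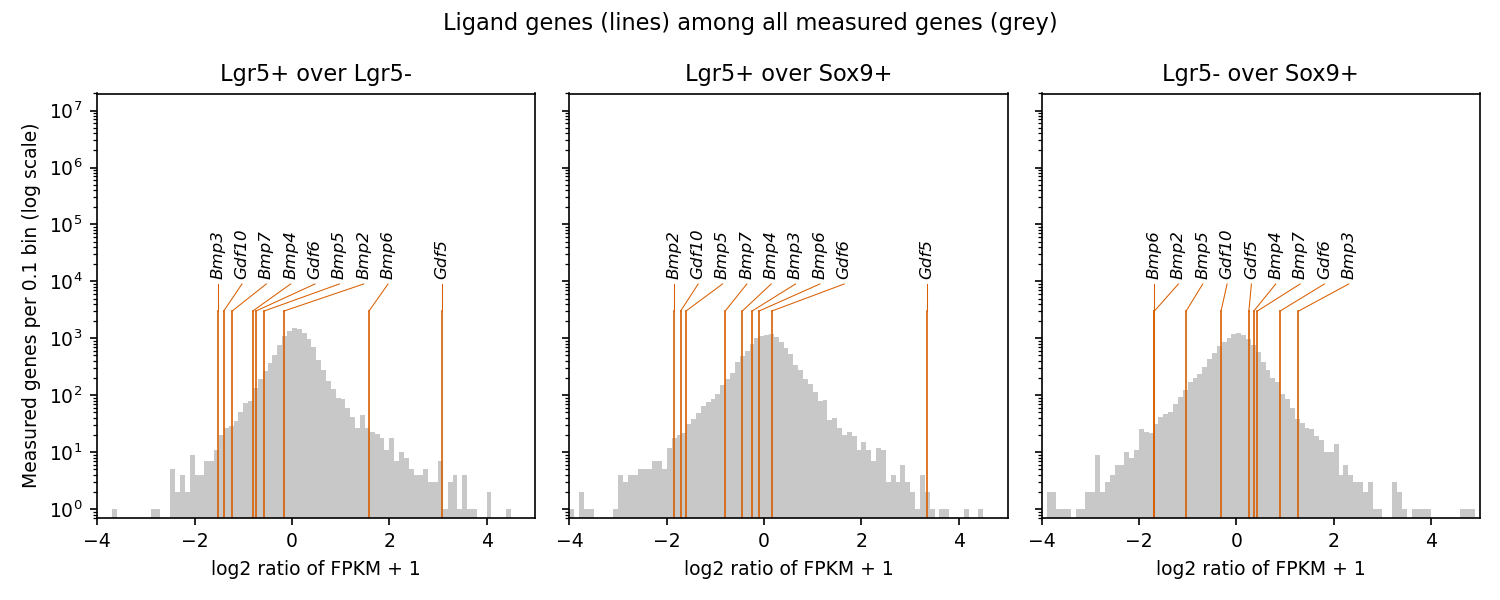
Log2 ratios of the 9 measured ligand genes (orange lines) over the distribution of all measured genes (grey, number of genes per bin of 0.1 on a log axis) in each pair; genes outside -4 to 5, such as haemoglobin genes, are off the axis. In the left panel Gdf5 lies in the upper tail with 23 genes above it, and Bmp3, with 68 genes below it, lies in the lower tail.

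The genes whose profile over the 3 libraries was most like that of a ligand gene were found by the distance between centred log2(FPKM + 1) values, among 7033 genes that reach 10 FPKM. Nearest to Gdf5 were the cadherin gene Cdh13 (2.91, 35.4 and 2.97 FPKM in Sox9+, Lgr5+ and Lgr5- cells), Svopl and Mir1983. Nearest to Bmp2 were Pmaip1, Sgms2 and Nfatc2, with Pmaip1 at 11.6, 2.64 and 2.98 FPKM. For Bmp4 they were Ahcy, 1700113A16Rik and Nxn, for Bmp7 Ahnak, Hspa12b and the limb transcription factor gene Tbx2, and for Gdf10 Snora34, Hist1h4d and Foxc2. For Bmp5 they were Nrp, the hindlimb selector gene Pitx1 (161.0, 56.5 and 83.2 FPKM) and Ehd3. Each gene gives only 3 values to this measure, and it is a description.

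Markers of other cells moved with some of these differences. Genes of the tissue between the digits, where Bmp2, Bmp4 and Bmp7 are known to be made, summed to 131.4 FPKM in Sox9+ cells, 141.2 FPKM in Lgr5+ cells and 315.2 FPKM in Lgr5- cells, and 4 of 6 were at least 2-fold lower in Lgr5+ than in Lgr5- cells. The 2 most abundant, Rdh10 and Msx1, stood at 39.4 and 67.3 FPKM in Lgr5+ cells and at 104.6 and 116.9 FPKM in Lgr5- cells. Msx1 was within 2-fold, at 1.73-fold. Bmp7, Gdf10 and Bmp3 were also lower in Lgr5+ cells, as were Bmp2, Bmp4, Bmp5 and Gdf6 within 2-fold, while Gdf5 and Bmp6 were higher. The sum of the marker genes was higher in Lgr5- than in Sox9+ cells, whereas Bmp2 was 3.22-fold lower. Bmp4 and Bmp7 were higher there, within 2-fold. Epidermal genes summed to 67.8, 66.7 and 26.9 FPKM in Sox9+, Lgr5+ and Lgr5- cells, and 6 of 10 measured were at least 2-fold higher in Lgr5+ than in Lgr5- cells. Against Sox9+ cells 4 were higher and 2 lower in Lgr5+ cells, so the like sums hide changes both ways. The 2 most abundant were Krt18 (26.9, 4.93 and 9.41 FPKM) and Perp (11.9, 10.1 and 1.60 FPKM). Fgf8, the signal of the limb's apical ridge, was listed at 0 in both Lgr5 libraries and stood at 0.32 FPKM in Sox9+ cells. Muscle genes summed to 18.6, 102.9 and 27.1 FPKM, with 8 of 8 measured at least 2-fold higher in Lgr5+ than in Lgr5- cells. Tendon genes summed to 133.8, 628.8 and 244.4 FPKM in Sox9+, Lgr5+ and Lgr5- cells, with 5 of 7 at least 2-fold higher in Lgr5+ than in Lgr5- cells and 6 of 7 higher than in Sox9+ cells, the direction of Gdf5. The 2 most abundant were Scx, the tendon transcription factor gene (42.5, 194.5 and 80.6 FPKM), and Fmod, a matrix proteoglycan gene (28.6, 134.6 and 24.5 FPKM). Macrophage genes summed to 11.9, 85.4 and 47.2 FPKM, with 3 of 9 at least 2-fold higher in Lgr5+ than in Lgr5- cells and 8 of 9 higher than in Sox9+ cells. Endothelial genes summed to 7.47, 16.4 and 17.1 FPKM, and 0 of 7 measured passed 2-fold between the Lgr5 libraries. Genes of perichondrium and loose connective tissue summed to 1559, 2067 and 2153 FPKM, with 1 of 7 past 2-fold in that pair. Genes of chondrocyte maturation summed to 291.9, 122.7 and 224.0 FPKM, and 8 of 10 were at least 2-fold lower in Lgr5+ than in Sox9+ cells. Cartilage genes summed to 8628, 3604 and 2224 FPKM, with 12 of 12 at least 2-fold lower in Lgr5- than in Sox9+ cells. Of 10 dissociation stress genes, 6 in Lgr5+ and 5 in Lgr5- cells were at least 2-fold lower than in Sox9+ cells. At that fold 0 were higher. The widest gap was that of the heat shock gene Hspa1a, at 1116, 20.2 and 16.1 FPKM in Sox9+, Lgr5+ and Lgr5- cells. Fos stood at 893.1, 589.8 and 890.8 FPKM and Dusp1 at 360.1, 591.4 and 215.7 FPKM, so the list did not move as one. The part of these cells and states in the ligand differences was not tested.

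Several genes of secreted BMP antagonists were higher in Lgr5+ cells, but their sum was alike in the Lgr5 libraries. The 16 listed genes summed to 555, 740 and 745 FPKM in Sox9+, Lgr5+ and Lgr5- cells. Fstl1 and Nbl1, the 2 most abundant, made up most of these sums, and both were lower in Lgr5+ than in Lgr5- cells, within 2-fold. Fstl1 stood at 344.3, 404.4 and 446.7 FPKM. Of 14 measured secreted antagonists, 4 were at least 2-fold higher in Lgr5+ than in Lgr5- cells (Cer1, Chrdl2, Nog and Chrdl1) and 1 lower (Sostdc1), and the median log2 ratio was 0.70, against 0.08 over all measured genes, of which 5.53% passed 2-fold in this pair. Nog, which encodes noggin, a blocker of BMP and GDF5 ligands, stood at 56.5 FPKM in Sox9+ cells, 62.8 FPKM in Lgr5+ cells and 22.4 FPKM in Lgr5- cells. The ratio of Gdf5 to Nog within a library was 1.06 in Sox9+ cells, 9.80 in Lgr5+ cells and 3.20 in Lgr5- cells. Chrdl2, a chordin-like gene, stood at 5.52, 14.3 and 0.85 FPKM, and Chrd itself at 2.72, 11.4 and 5.69 FPKM in that order. Against Sox9+ cells, 4 antagonists were higher in Lgr5+ cells (Nbl1, Cer1, Chrd and Chrdl2) and 2 lower (Bmper and Grem1). In this pair 8.29% of all measured genes passed 2-fold. Nbl1 was higher still in Lgr5- cells, at 27.5, 116 and 157 FPKM in Sox9+, Lgr5+ and Lgr5- cells.

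Of 10 measured receptor genes, 0 passed 2-fold in any of the 3 pairs. Few genes did so at all: 5.53%, 8.29% and 8.02% of those measured for Lgr5+ against Lgr5-, Lgr5+ against Sox9+ and Lgr5- against Sox9+. The counts of receptors and proteases are therefore near those of genes at large. Bmpr1b, the type of receptor that GDF5 prefers, stood at 9.43 FPKM in Sox9+ cells, 16.2 FPKM in Lgr5+ cells and 9.12 FPKM in Lgr5- cells, a difference of 1.70-fold between the Lgr5 libraries. Bmpr1a stood at 34.3, 29.6 and 30.5 FPKM. Among the Smad and feedback genes, 8 of 8 measured lay within 2-fold between the Lgr5 libraries. Against Sox9+ cells 1 of 9 was higher and 1 lower in Lgr5+ cells, where 4.33% and 3.96% of all measured genes were. In Lgr5- against Sox9+ cells 9 of 9 lay within 2-fold. Smad1 stood at 59.3 FPKM in Lgr5+ cells, against 25.4 FPKM in Sox9+ cells, where it was 2.29-fold lower, and 32.4 FPKM in Lgr5- cells. Smad9 was low, at 2.06, 0.52 and 0.79 FPKM in Sox9+, Lgr5+ and Lgr5- cells, and 2.01-fold lower in Lgr5+ than in Sox9+ cells. The 6 measured protease genes, among them Furin and Bmp1 (a protease and no BMP), lay within 2-fold in all pairs.

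Of 12 genes known to respond to BMP signalling, 1 passed 2-fold between the Lgr5 libraries, a share near the 5.53% of all measured genes. This was Dlx5, which was lower in Lgr5+ cells, at 3.97 against 15.7 FPKM, and the median log2 ratio of the 12 was -0.09. Id1, a direct target of the pathway, stood at 1568 FPKM in Sox9+ cells, 1047 FPKM in Lgr5+ cells and 1117 FPKM in Lgr5- cells, and Id3 at 3571, 2564 and 2276 FPKM. Sox9+ cells thus had the highest Id1 and Id3 of the 3, and the part of any single ligand in this was not tested. Against Sox9+ cells, Dlx5, Dlx6 and Hey1 were at least 2-fold lower in Lgr5+ cells and 0 were higher, with a median of -0.59. Over all measured genes of this pair 3.96% were lower and 4.33% higher, with a median of 0.06. In Lgr5- cells Id4 and Hey1 were lower and Msx1 higher than in Sox9+ cells, with a median of -0.64. All measured genes there had 4.94% lower, 3.08% higher and a median of -0.01. Some genes of this list, such as Smad7, are also counted among the Smad and feedback genes.

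Of the 21 other ligand genes of the TGF-beta superfamily, 10 were measured between the Lgr5 libraries. Of these 4 were at least 2-fold higher in Lgr5+ cells and 0 lower, against 3.64% and 1.89% of all measured genes. With a pseudocount of 5 FPKM, with a minimum of 10 FPKM and at 3-fold, 2 were higher in place of 4. Inhba, the activin A subunit gene, stood at 19.6, 74.2 and 6.76 FPKM in Sox9+, Lgr5+ and Lgr5- cells, and Tgfb2 at 36.2, 120.3 and 27.4 FPKM, so both, like Gdf5, were highest in Lgr5+ cells. Gdf1 was 2.16-fold higher, but it is transcribed together with Lass1 and its reads may not be its own. Gdf15, a stress-induced ligand, stood at 2.56, 1.49 and 0 FPKM as listed in Sox9+, Lgr5+ and Lgr5- cells. The BMP-type genes outside the 10, Bmp8a, Bmp8b, Bmp10, Bmp15 and Gdf2, were all under 1 FPKM in each library.

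**Figure D5:**
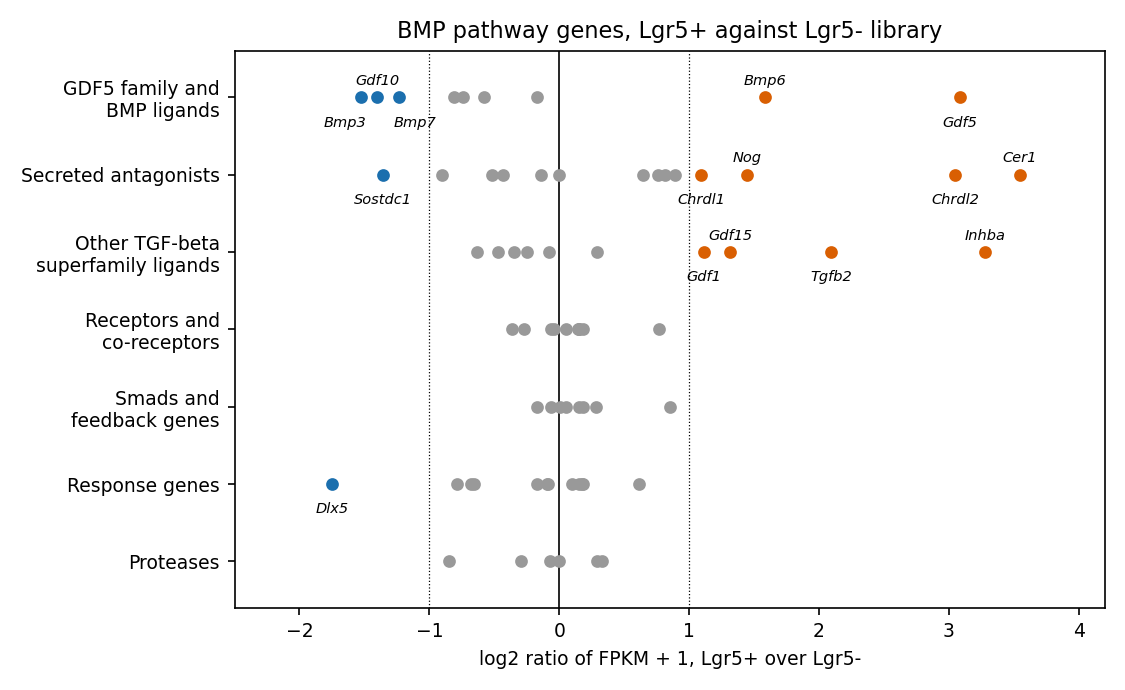
Log2 ratio of FPKM + 1 between Lgr5+ and Lgr5- cells for the measured genes of each BMP pathway list, 1 point per gene, with names for genes at least 2-fold different (dotted lines). Points past 2-fold occur among ligands, antagonists and other superfamily ligands and for Dlx5 among the response genes, and the receptor, Smad and protease genes lie between the lines.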

How the data were processed

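RNA of sorted cells was made into cDNA libraries from 10 ng with a SMARTer ultra-low-input kit, per the labels' protocols. The submitters' processing notes name HISAT2 and mm10 (GRCm38). Which tool and annotation gave the values, and how shared reads were treated, is not given in the sources used here. All deposited files hold FPKM computed by the authors, 1 value per gene symbol with 2 decimals, per the file headers. They hold no read counts. A search for the FPKM value of 1 fragment among 421 to 473 short genes gave no usable step (best scores 0.242 to 0.295, at the edge of the range searched), so depth remains unknown and values have no counting interval.

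Differences were log2 ratios of FPKM + 1. A gene was measured at 1 FPKM or more in the higher library and called at 2-fold. No test was possible with 1 library per group. The calling was tested on simulated data. Gene positions and overlaps came from GENCODE M21, upstream sequences from RefSeq (GRCm38.p6). Lists of receptors, Smads, antagonists, response genes, proteases, other ligands and cell markers were used, and the members and lists were chosen with earlier results of these data known. In the lists, genes past 2-fold in any pair, the 2 most abundant, and markers at 0 could be named, as well as the 3 genes with the profile nearest to a member. Bmpr1b, the genes overlapping a member, and superfamily ligands under 1 FPKM were named after their values were seen. Alternatives were other pseudocounts, minimums, scalings and a 3-fold threshold. The pseudocount and minimum stayed at 1 in TPM, where values are larger than in FPKM, so TPM also made both weigh less. Analyses used Python 3.11.15 and pandas 2.3.3.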

Additional observations from a re-analysis of the deposited data

How the results depend on the processing

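Under 2 other pseudocounts and 4 other scalings, the call at 2-fold was unchanged in 167 of 180 recomputations of the ligand genes, 9 calls ended and 4 were gained. Among the unchanged is Gdf7 with a pseudocount of 0.1 FPKM, uncalled for its level under 1 FPKM although its ratio passed 2-fold, at 1.81, -1.12 and -2.93 for Lgr5+ over Lgr5-, Lgr5+ over Sox9+ and Lgr5- over Sox9+. The ratio of Gdf5 ranged from 2.96 to 3.12 for Lgr5+ over Lgr5- and from 3.26 to 3.50 for Lgr5+ over Sox9+. The sign changed once, for Bmp6 in Lgr5+ over Sox9+, at 0.02 in TPM and -0.11 in FPKM, neither of them called. For Lgr5+ against Lgr5-, 1 ligand gene was higher in place of 2 with a pseudocount of 5 FPKM, with a minimum of 10 FPKM and at 3-fold, and 0 in place of 3 were lower at 3-fold. For Lgr5- against Sox9+, 2 ligand genes were higher in place of 1 with a pseudocount of 0.1 FPKM and in TPM, 0 were higher with a pseudocount of 5 FPKM, with a minimum of 10 FPKM and at 3-fold, and 1 in place of 3 was lower with a pseudocount of 5 FPKM. The counts of the 6 pathway lists stayed within 1.5 times in 289 of 324 recomputations. These include recomputations without a minimum, which could not differ, since a gene at least 2-fold apart in FPKM + 1 reaches 1 FPKM. Over all genes, the counts higher and lower were 453 and 235 for Lgr5+ against Lgr5-, 541 and 495 for Lgr5+ against Sox9+, and 384 and 617 for Lgr5- against Sox9+. In the same order they were 694 and 458, 900 and 785, and 721 and 958 with a pseudocount of 0.1 FPKM. With one of 5 FPKM they were 202 and 81, 193 and 193, and 139 and 273, with a minimum of 10 FPKM 242 and 115, 273 and 257, and 180 and 369, and at 3-fold 169 and 61, 173 and 155, and 118 and 196. In TPM they were 616 and 355, 981 and 533, and 706 and 644, and with the sum without Rn45s and haemoglobin genes the last pair had 507 and 501. TPM moved the median log2 ratio of all measured genes by 0.14 for Lgr5+ over Sox9+ and by 0.11 for Lgr5- over Sox9+, the sum without Rn45s and haemoglobin genes moved the latter by 0.12, and the upper quartile moved Lgr5+ over Lgr5- by -0.12. TPM also makes the pseudocount and the minimum weigh less, and how much of the TPM changes comes from that was not tested. Other causes were not tested. Each population had 1 library, so no replicate could be left out. No paired analysis was possible because each group holds 1 library.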
